A study of Mus musculus with 3 samples.

Results

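The genes described here make cholesterol and fatty acids or control their making. Their list was chosen with earlier results of these data known, so its shares set beside all genes are descriptive only. The list held 33 mouse genes taken by name, through the gene probes of the arrays whose gene name was one of the 33 symbols, each kept whatever its value. Of these, 32 had at least 1 probe and *Acat2* had none under that name, out of 26840 genes with a symbol on the arrays. They fell into 5 groups by role, with 7 genes of the mevalonate and isoprenoid steps, 10 of the squalene and sterol steps, 6 of sterol sensing and transport, 3 of fatty acid synthesis and 7 of desaturation and elongation.

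RNA was measured in RAW 264.7 cells, a mouse macrophage line, on 3 one-colour Agilent arrays, 1 for each group. All 3 groups received lipopolysaccharide (LPS), the outer membrane component of Gram-negative bacteria that activates TLR4, at 50 ng/mL. The LPS group received nothing before it, the CRL1505 + LPS group was first kept for 24 h with *Lacticaseibacillus rhamnosus* CRL1505 at 50000000 cells/mL, and the CRL1506 + LPS group likewise with *Lactiplantibacillus plantarum* CRL1506, both washed away before LPS. The time with LPS was 12 h in the text on the design and 3 h in the sample descriptions, and cells without LPS were not analysed here.

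Cholesterol is built from acetyl-CoA through mevalonate, isoprenoid units, squalene and lanosterol, while fatty acids are built from the same acetyl-CoA through malonyl-CoA and are then desaturated and elongated. Most of these enzymes are controlled by the SREBP transcription factors, which SCAP carries from the endoplasmic reticulum to the Golgi for cleavage when sterols are low and which INSIG proteins hold back when sterols are high. In macrophages these pathways supply membrane and lipid mediators and are known to be reset during TLR4 signalling.

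With 1 array a group, no difference had a replicate check, no test was run, and a ratio of at least 2-fold was called on size alone, whereas the study's methods ask for this size and a p-value together, against cells without LPS. What error the arrays hold came from their own spots: the median SD of the log2 ratio was 0.049, 0.047 and 0.050 between repeated spots of 1 probe, and 0.23, 0.21 and 0.32 between different probes of 1 gene, for CRL1505 + LPS over LPS, CRL1506 + LPS over LPS and CRL1505 + LPS over CRL1506 + LPS respectively. The 90th percentile of the SD between probes was 0.64, 0.79 and 0.94 in the same order. The spread between probes used below is the median, so many genes have probes that differ by more. Both comparisons with LPS used the same LPS array. Slide and scan were shared by LPS and CRL1506 + LPS, while CRL1505 + LPS had a slide to itself, so strain and slide cannot be told apart. The CRL1505 + LPS array was also the dimmest, with 48.5% of the gene spots well above background against 54.5% and 55.3%, and a 75th percentile signal of 517 against 743 and 698 units, and the part of this in the results was not tested. All 11 macrophage markers on the arrays were well above background on each array, with *Adgre1* 4.83-fold higher and *Csf1r* 2.77-fold lower with CRL1505 than with LPS. Of the markers of other cells, in the order LPS, CRL1505 + LPS and CRL1506 + LPS, 0, 0 and 0 of 3 for hepatocytes passed background, 1, 1 and 2 of 3 for adipocytes, 3, 3 and 4 of 4 for T cells, 2, 2 and 2 of 4 for B cells, 0, 1 and 2 of 4 for fibroblasts, 1, 0 and 1 of 4 for epithelial cells and 2, 3 and 2 of 4 for neutrophils. Among them *Lck* was 2.74-fold higher with CRL1505 than with LPS, *S100a9* had 6.76, 261 and 7.30 units, *S100a8* had 1144, 462 and 1419 units and *Mpo* had 44.6, 28.8 and 88.7 units. Against LPS, *Epcam* was at least 3.81-fold lower with CRL1505 and 2.63-fold lower with CRL1506. *Col1a2* was at least 3.50-fold higher with CRL1505, and *Col1a1* and *Plin1* at least 3.60-fold and 3.27-fold higher with CRL1506. *Ly6g* had no value with LPS, 158 units with CRL1505 + LPS and a dim 32.3 with CRL1506 + LPS. The part of these markers in the results was not tested. Below, a signal is the processed signal after each array was scaled to its 75th percentile, in array units, and signals of different genes are not comparable.

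With *L. rhamnosus* CRL1505, most of the sterol and fatty acid genes had less signal than with LPS alone. Of the 33 genes, 30 could be compared, and each had a log2 ratio below 0, although the signals of *Sc5d* were equal to the nearest unit and 7 of the 30 passed 0 when the arrays were scaled to their medians. The median log2 ratio was -0.62 for these genes and 0.06 for the 13242 genes measured on both arrays, and 49.3% of all 15609 genes compared lay below 0. 6 genes (*Pmvk*, *Mvd*, *Nsdhl*, *Dhcr7*, *Scd2* and *Fads2*) fell at least 2-fold, 20% of those compared against 8.41% of all genes, and none rose at least 2-fold against 9.92% of all genes. At 1.5-fold, 17 of 30, or 56.7%, were lower against 17.2% of all genes. Less RNA per cell and fewer cells with the RNA cannot be told apart in such bulk samples.

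With *L. plantarum* CRL1506 the ratios were smaller. Of 31 genes compared, 25 (80.6%) lay below 0 and 6 above it, where 57.3% of all 16284 genes compared lay below 0, and the median was -0.32 against -0.06 for the 14407 genes measured on both arrays. None fell at least 2-fold against 3.52% of all genes, 2 were lower by at least 1.5-fold (*Nsdhl* and *Srebf2*) against 9.22%, and 1 was at least 2-fold higher (*Elovl6*) against 5.67%. Of the 31, 12 (38.7%) differed from LPS by less than the spread of 0.21 between probes of a gene, against 42.7% of all genes. With CRL1505, 4 of 30 (13.3%) did so (*Sqle*, *Sc5d*, *Insig2* and *Acly*, spread 0.23), against 30.6% of all genes.

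**Figure D1:**
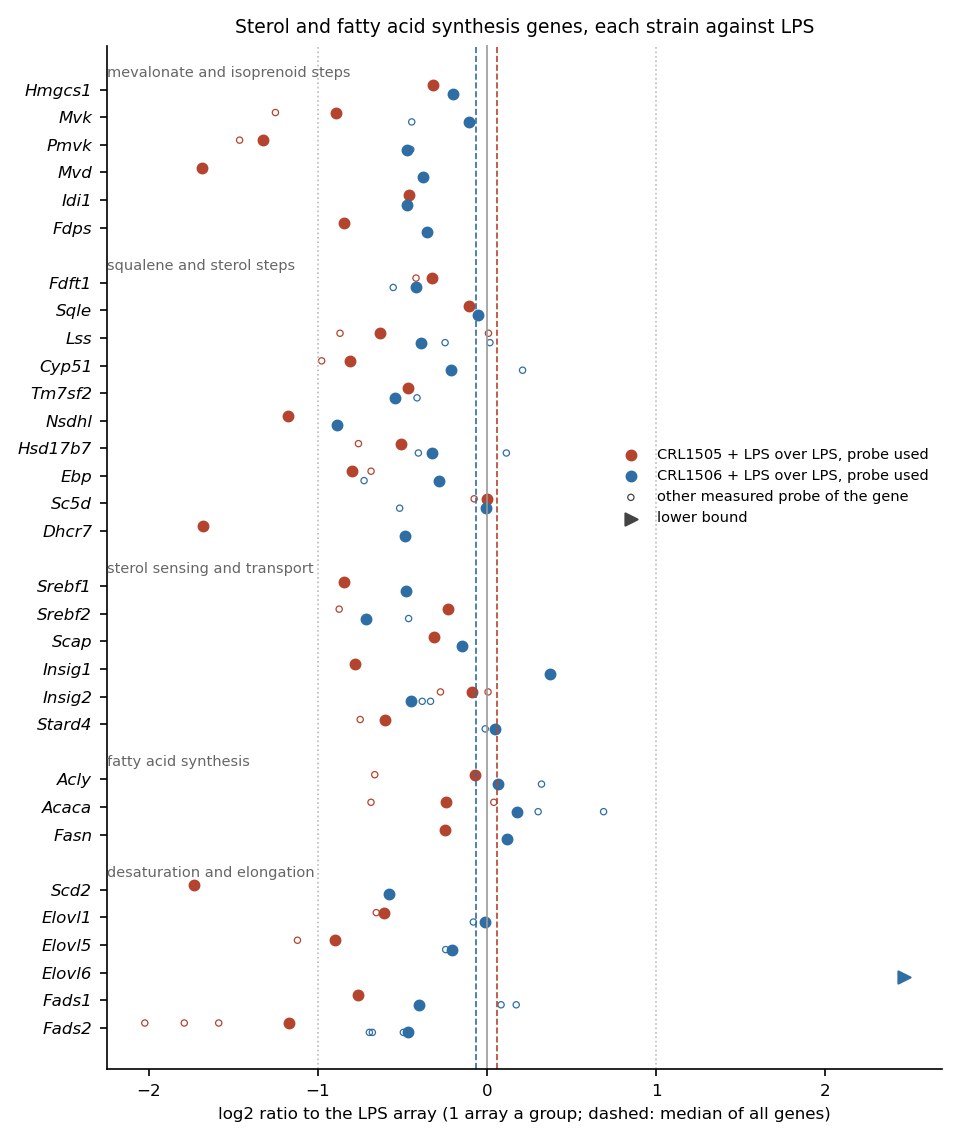
Log2 ratio to the LPS array (x axis) of each compared gene, grouped by role (y axis), for CRL1505 + LPS (red) and CRL1506 + LPS (blue), 1 array a group. Filled points are the probe used, open circles other measured probes of the gene, the triangle a lower bound, dotted lines 2-fold and dashed lines the medians of all genes at 0.06 and -0.06. The red filled points lie at or left of 0, and 7 of them pass 0 when the arrays are scaled to their medians, while the filled blue points lie between -0.88 and 0.37 apart from the bound for *Elovl6* at 2.47.

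The first enzymes of the cholesterol route turn acetyl-CoA into the isoprenoid unit, and the 6 of them on the arrays had a median log2 ratio of -0.87 with CRL1505 and -0.37 with CRL1506. *Hmgcs1*, which makes HMG-CoA, had a signal of 10303.5 with LPS, 8246 with CRL1505 + LPS and 8946 with CRL1506 + LPS. *Mvk*, mevalonate kinase, had 6427, 3466 and 5969 units in the same order, a log2 ratio of -0.89 with CRL1505 and -0.11 with CRL1506, and -1.25 and -0.45 on its dimmer probe. For both genes the CRL1505 + LPS array was the lowest. *Pmvk*, the kinase of the next step, had 10674 units with LPS, 4252 with CRL1505 + LPS and 7690.2 with CRL1506 + LPS. It fell by 1.33 on the log2 scale with CRL1505, 2.51-fold, and its other probe gave -1.46. The ratio of *Pmvk* with CRL1506 was -0.47, between those of the other arrays and under 2-fold.

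*Mvd*, the decarboxylase that closes the mevalonate steps, had 1701 units with LPS, 528 with CRL1505 + LPS and 1309 with CRL1506 + LPS on its single probe. It fell by 1.69 on the log2 scale with CRL1505, 3.22-fold, and stood at -0.38 with CRL1506. Only the CRL1505 + LPS array was far from the other two for this gene. *Idi1*, the isomerase of the isoprenoid unit, had 8507, 6174 and 6136 units, nearly the same for the 2 strains, and 6 of the 20 spots nearest to its probe on the LPS array were uneven. *Fdps*, farnesyl diphosphate synthase, had 47340.2 units with LPS, 26378 with CRL1505 + LPS and 37032 with CRL1506 + LPS, a log2 ratio of -0.84 and -0.35.

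SREBP proteins act through sterol regulatory elements near the start of their target genes, together with the factors that bind CCAAT and GC boxes, so the promoter windows of the group were searched. RefSeq windows of 300 bases, 250 before and 50 after the start (GRCm38.p6), were found for 26 of the 33 genes, 35 windows in all, and were absent from the table used for *Fdps*, *Fdft1*, *Sqle*, *Stard4*, *Scd1*, *Scd2* and *Fads1*. The element was searched as TCACNCCAC, the CCAAT box as CCAAT, the GC box as GGGCGG and the E-box as CACGTG, on both strands, and none of these motifs contains another. The sterol regulatory element in this form was in 1 of the 35 windows, that of *Hmgcs1*, and in 1.24% of all 32851 windows. The CCAAT box was in 22 of the 35 windows against 37.4% of all, the GC box in 26 against 35.7% and the E-box in 7 against 7.15%. A match is a description of the letters, and a missing match says only that these letters are not in that window. The bases before the start are shown for *Hmgcs1*, which holds the element, and for *Mvd* and *Dhcr7*, picked after their values were seen as the genes with a window that fell most with CRL1505. Capitals mark the motifs on either strand, and in *Hmgcs1* the element begins 137 bases before the start, with 3 CCAAT boxes and 2 GC boxes around it. The *Mvd* stretch holds 2 CCAAT boxes and 1 GC box, and the stretch of *Dhcr7*, from the first of its 3 windows, holds 1 GC box. The windows of *Dhcr7* that are not shown hold CCAAT boxes, GC boxes and an E-box.
Hmgcs1 (chr13:119690101-119690350, plus strand): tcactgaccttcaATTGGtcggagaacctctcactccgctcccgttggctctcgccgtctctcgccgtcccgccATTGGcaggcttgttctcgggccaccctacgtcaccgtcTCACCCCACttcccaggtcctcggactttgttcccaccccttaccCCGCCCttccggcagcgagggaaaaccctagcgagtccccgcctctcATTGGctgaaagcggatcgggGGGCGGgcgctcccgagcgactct
Mvd (chr8:122443423-122443672, minus strand): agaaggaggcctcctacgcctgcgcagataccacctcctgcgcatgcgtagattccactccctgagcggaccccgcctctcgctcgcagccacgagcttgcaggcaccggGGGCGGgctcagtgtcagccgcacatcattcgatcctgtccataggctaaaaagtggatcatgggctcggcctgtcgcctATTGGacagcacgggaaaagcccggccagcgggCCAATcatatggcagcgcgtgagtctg
Dhcr7 (chr7:143822917-143823166, plus strand): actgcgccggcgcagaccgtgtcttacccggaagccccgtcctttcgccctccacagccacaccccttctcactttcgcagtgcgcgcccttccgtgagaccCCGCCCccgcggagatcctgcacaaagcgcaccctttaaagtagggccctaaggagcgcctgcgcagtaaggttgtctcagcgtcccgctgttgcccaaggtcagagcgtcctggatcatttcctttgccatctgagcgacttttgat

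The 10 genes of the squalene and sterol steps carry farnesyl diphosphate to cholesterol, and their median log2 ratio was -0.57 with CRL1505 and -0.36 with CRL1506. *Fdft1*, squalene synthase, had 6321 units with LPS, 5044 with CRL1505 + LPS and 4719 with CRL1506 + LPS, and was lowest with CRL1506. *Sqle*, the squalene epoxidase, had 17401, 16141 and 16788 units, so the 3 arrays differed by less than the spread between probes. *Lss*, which closes the ring to lanosterol, had 2923, 1881 and 2234 units, and of its 3 probes the dimmest gave 0.01 for CRL1505 while the others gave -0.64 and -0.87. The probes of 1 gene thus did not all give the same size. *Cyp51*, the lanosterol demethylase, had 2855, 1628 and 2463 units, -0.81 with CRL1505 and -0.21 with CRL1506, and its other probe gave -0.98 and 0.21. *Tm7sf2*, a sterol reductase, had 2802, 2026 and 1921 units, lower than LPS with both strains. *Nsdhl*, which acts in the removal of the sterol's methyl groups, had 871 units with LPS, 386 with CRL1505 + LPS and 472 with CRL1506 + LPS. It fell by 1.17 on the log2 scale with CRL1505 and stood at -0.88 with CRL1506, the lowest ratio of the whole set with that strain. The call of *Nsdhl* with CRL1505 was under 2-fold with the deposited table, at -0.89, and with scaling to the median, at -0.88.

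The later sterol enzymes differed among themselves. *Hsd17b7*, a sterol ketone reductase, had 6908 units with LPS, 4850.3 with CRL1505 + LPS and 5521 with CRL1506 + LPS. *Ebp*, the sterol isomerase, had 12319, 7092 and 10134.5 units, a log2 ratio of -0.80 with CRL1505 and -0.28 with CRL1506, and -0.69 and -0.73 on its dimmer probe. *Sc5d*, the desaturase after it, had 4114, 4114 and 4106 units, the most even of the sterol enzymes across the arrays on the probe used, while its dimmer probe had 155, 147 and 108 units, -0.52 with CRL1506. *Dhcr7*, whose product is cholesterol itself, had 855 units with LPS, 266 with CRL1505 + LPS and 612 with CRL1506 + LPS. It fell by 1.68 on the log2 scale with CRL1505, 3.21-fold, and stood at -0.48 with CRL1506, and a second probe did not pass background on the 3 arrays. In the array's mm9 positions the probe of *Dhcr7* lies at chr7:151033874-151033933 and that of *Mvd* at chr8:124957750-124957809, named for these genes by the files. Exons and UTRs were not looked up, since no annotation of that build was used here.

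Of the 6 genes of sterol sensing and transport, none changed 2-fold against LPS, and *Insig1* lay on opposite sides of LPS with the 2 strains. *Srebf1*, which encodes SREBP-1, had 9130.1 units with LPS, 5083 with CRL1505 + LPS and 6563 with CRL1506 + LPS, a log2 ratio of -0.84 and -0.48. *Srebf2*, which encodes SREBP-2, had 2981, 2537 and 1816 units, a ratio of -0.23 with CRL1505 and -0.72 with CRL1506. Its other probe gave -0.87 and -0.46, so which strain was lower for *Srebf2* depended on the probe. *Scap* had 3882, 3119 and 3502 units, and *Insig2* had 2484, 2337 and 1817 units, with 8 of the 20 spots nearest to the dimmest of its 3 probes on the LPS array uneven. *Insig1*, itself a target of SREBP, had 826 units with LPS, 480.2 with CRL1505 + LPS and 1070.1 with CRL1506 + LPS. Its log2 ratio was -0.78 with CRL1505 and 0.37 with CRL1506, and the CRL1505 + LPS signal was 2.23-fold under that of CRL1506 + LPS, a difference of under 2-fold when arrays were scaled to their medians (-0.66), with the deposited table (-0.93) and with the normexp background (-0.98). *Stard4*, a carrier of cholesterol between membranes, had 1254, 826 and 1295 units, -0.60 with CRL1505 and 0.05 with CRL1506.

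The 3 enzymes that make palmitate were under 2-fold against LPS with both strains. *Acly*, which makes cytosolic acetyl-CoA from citrate, had 15859 units with LPS, 15088 with CRL1505 + LPS and 16609 with CRL1506 + LPS, and its dimmer probe gave -0.66 with CRL1505 and 0.32 with CRL1506, against -0.07 and 0.07. *Acaca*, the carboxylase that makes malonyl-CoA, had 4049.7, 3427 and 4574 units, and its 3 measured probes ran from -0.69 to 0.04 with CRL1505 and from 0.18 to 0.69 with CRL1506. *Fasn*, the fatty acid synthase, had 34908, 29398.5 and 37915 units, a ratio of -0.25 with CRL1505 and 0.12 with CRL1506. All 3 genes were under LPS with CRL1505 and over it with CRL1506, but on the probe used each of these ratios was under 1.5-fold and each changed sign when the arrays were scaled to their medians.

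The desaturases and elongases held the lowest ratio with CRL1505 and the only call with CRL1506. *Scd2*, a stearoyl-CoA desaturase, had 30657 units with LPS, 9229 with CRL1505 + LPS and 20505 with CRL1506 + LPS on 1 probe (mm9 chr19:44381024-44381083). It fell by 1.73 on the log2 scale with CRL1505, 3.32-fold, and stood at -0.58 with CRL1506. *Scd1*, the isoform best known from liver, did not pass background on the 3 arrays with either of its 2 probes, so it has no ratio. These 2 probes lie on opposite strands in the array's mm9 positions, so they may not both read the *Scd1* transcript. *Fads2*, the desaturase that opens the synthesis of long polyunsaturated fatty acids, had 1130.4 units with LPS, 502 with CRL1505 + LPS and 819 with CRL1506 + LPS. It fell by 1.17 on the log2 scale with CRL1505, and its 4 measured probes ran from -1.17 to -2.02, but scaling to the median brought it to -0.87, under 2-fold. *Fads1*, its partner in that pathway, had 1395, 822 and 1056 units, -0.76 and -0.40. With its 2 dimmer probes the signal with CRL1505 was not well above background, giving bounds of -1.38 and -1.74, and with CRL1506 they gave 0.17 and 0.08, opposite in sign to the probe used.

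*Elovl1*, which elongates very long saturated chains, had 28082 units with LPS, 18390 with CRL1505 + LPS and 27841 with CRL1506 + LPS, so only CRL1505 + LPS stood apart. *Elovl5*, which elongates polyunsaturated chains, had 2742, 1471 and 2379.8 units, -0.90 with CRL1505 and -0.20 with CRL1506, and -1.12 with CRL1505 on another probe. *Elovl6*, which takes palmitate to stearate, had 29.8 units with LPS and 35.3 with CRL1505 + LPS, both not well above background, and 165 with CRL1506 + LPS. Its signal with CRL1506 was at least 5.53-fold higher than with LPS and at least 4.46-fold higher than with CRL1505, as bounds against the probe's own dim signal with LPS and against the lowest signal that passed background on the CRL1505 + LPS array, and it rests on 1 probe. *Elovl6* was at least 2-fold higher than LPS in the 11 other ways of processing that gave it a ratio, with a lowest log2 ratio of 1.19 from the deposited table, and it has no ratio in the other 2, where a probe had to pass background on each array or where the probes that passed it were averaged.

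**Figure D2:**
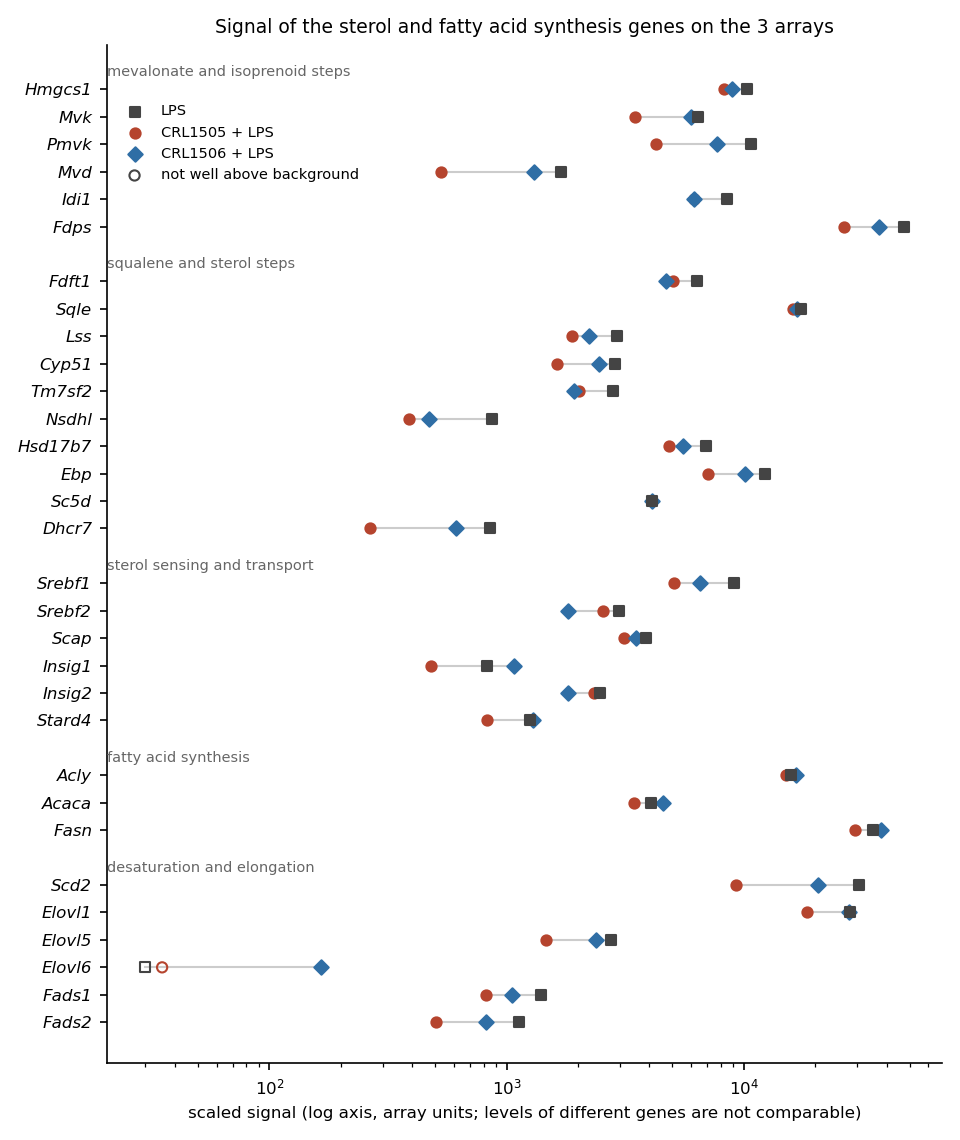
Scaled signal (x axis, log scale, array units) of each compared gene (y axis) on the LPS (squares), CRL1505 + LPS (circles) and CRL1506 + LPS (diamonds) arrays, with open symbols for signals not well above background. Of the 30 genes that passed background everywhere, 25 were highest with LPS, against 33.5% of all 13126 such genes, and 24 were lowest with CRL1505, against 34.02%, an order that depends on the scaling, since 17 of the 31 ratios between the strains changed sign under another way of processing.

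Set against each other, CRL1505 + LPS was lower than CRL1506 + LPS for 25 of 31 genes, with a median log2 ratio of -0.37 against 0.09 for all genes measured on both arrays, but this median was 0.13 when the arrays were scaled to their medians. 5 genes were at least 2-fold lower with CRL1505 (*Mvd*, *Dhcr7*, *Insig1*, *Scd2* and, as a bound, *Elovl6*), 16.1% of those compared against 7.46% of all genes and 1 gene with scaling to the median, and none was at least 2-fold higher against 9.01%. At 1.5-fold, 12, or 38.7%, were lower against 17.3% of all genes. By group, the medians were -0.64 for the mevalonate steps, -0.22 for the sterol steps, -0.27 for sensing and transport, -0.37 for fatty acid synthesis and -0.70 for desaturation and elongation. By more than the spread of 0.32 between probes, 18 of the 31 (58.1%) were lower and 2 higher (*Srebf2* and *Insig2*), against 28.1% and 31.6% of all genes. Other probes gave -0.41 for *Srebf2*, opposite in sign, and 0.39 and 0.06 for *Insig2*.

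**Figure D3:**
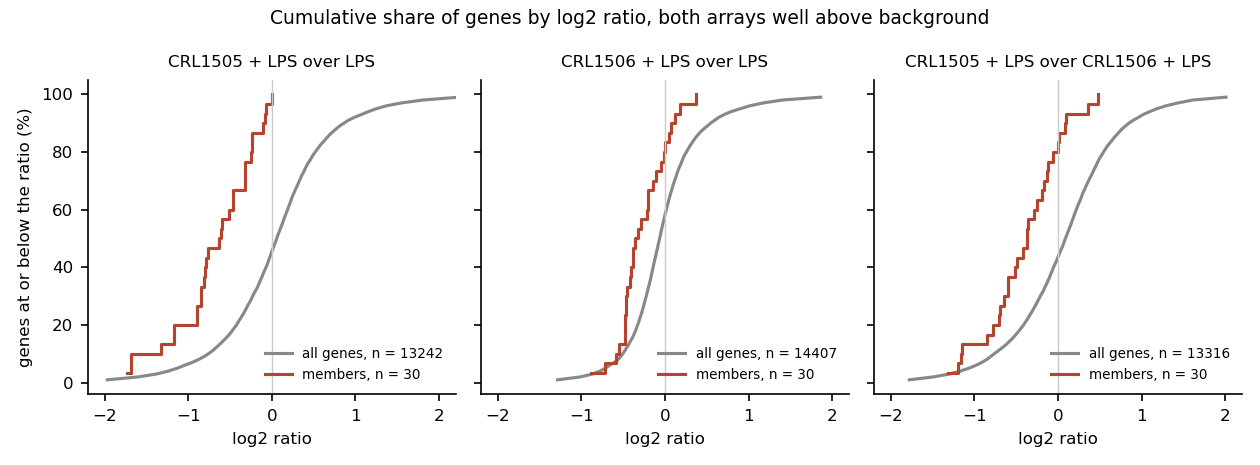
Cumulative share (y axis, %) of genes at or below a log2 ratio (x axis) in the 3 comparisons, for the 30 sterol and fatty acid genes well above background on both arrays (red) and all such genes (grey, percentiles 1 to 99). The red line lies mostly left of the grey one, with medians of -0.62 and 0.06 for CRL1505 + LPS over LPS, and its place against 0 shifts with the scaling, to a median of 0.13 in the comparison of the strains when arrays are scaled to their medians.

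Where the zero of these ratios lies depended on the scaling, since the median of all genes in the 3 comparisons was 0.06, -0.06 and 0.09 at the 75th percentile, 0.35, -0.26 and 0.58 with scaling to the median, and -0.45, -0.17 and -0.31 with scaling to the spike-in controls. The counts of all genes at least 2-fold higher and lower moved with it, from 1549 and 1312 with CRL1505 over LPS to 2417 and 760 or 799 and 3167, from 923 and 574 with CRL1506 to 670 and 871 or 781 and 697, and from 1423 and 1177 between the strains to 3518 and 434 or 801 and 2663. Relative to all genes, the sterol and fatty acid genes stood at -0.68 with CRL1505, -0.27 with CRL1506 and -0.46 between the strains, a value that a constant shift of an array cannot change. With quantile normalization these were -0.73, -0.16 and -0.61, and with cyclic loess -0.77, -0.18 and -0.62. With CRL1505 all 30 compared genes lay under the median of all genes. The genes of the set are bright, so they were also set beside the 8105 genes whose mean level passed the 75th percentile: the 28 of them in that class had medians of -0.61, -0.30 and -0.37, and the class as a whole 0.09, -0.09 and 0.15. At least 2-fold lower were 4, 0 and 3 of the 28, and 396 of 8099, 89 of 8100 and 239 of 8104 compared genes of the class. These shares of the class are smaller than those of all genes given above, which include dim genes and bounds. *Pmvk*, *Mvd*, *Dhcr7* and *Scd2* were at least 2-fold lower with CRL1505 in all 13 other ways of processing. At the 75th percentile scaling, where a gene of the set had more than 1 measured probe, all its probes lay below 0 for 14 of 17 genes with CRL1505 and for 11 of 18 with CRL1506. No such count was made for all genes or under another scaling.

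**Figure D4:**
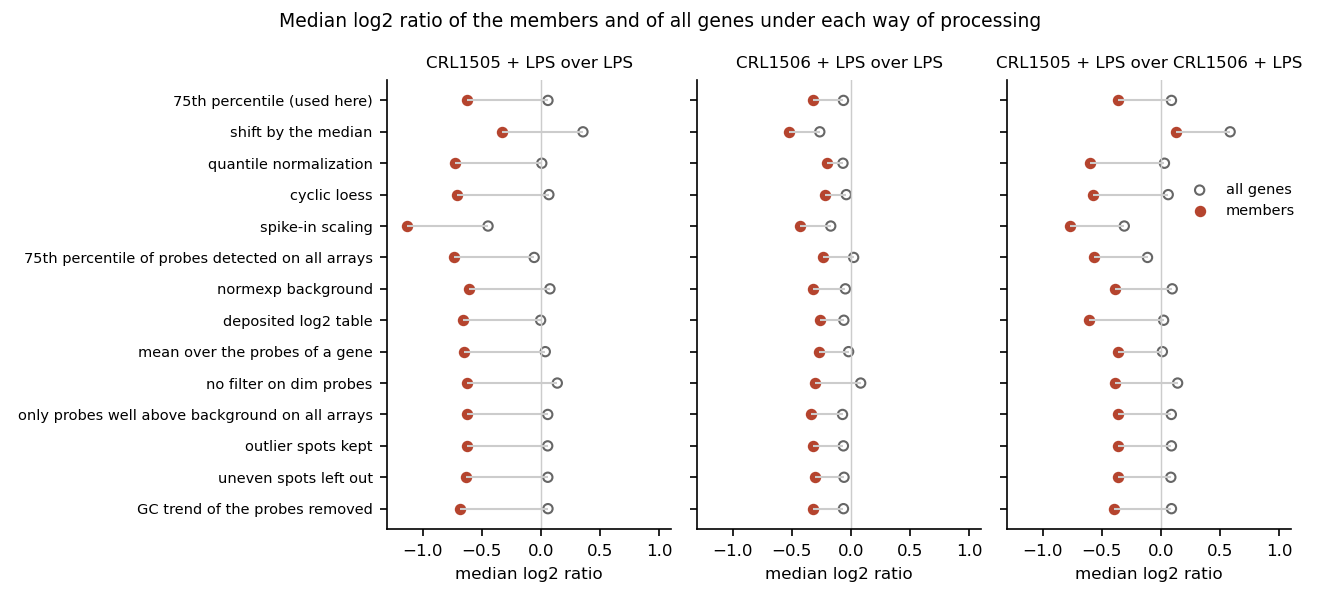
Median log2 ratio (x axis) of the sterol and fatty acid genes (red) and of all genes measured on both arrays (open grey) under each way of processing (y axis) in the 3 comparisons. The red point lies left of the grey one in each row, while both move with the scaling, and the red median passes 0, to 0.13, in the comparison of the strains with a shift by the median.

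The genes around these pathways are given at the 75th percentile scaling only. The lists below, in order, had 5, 9, 19, 5 and 13 genes compared between CRL1505 + LPS and LPS. Of these, 0, 1, 2, 1 and 1 were at least 2-fold higher, against 9.92% of all genes. At least 2-fold lower were 0, 0, 0, 1 and 1, against 8.41%. With CRL1506, 0, 0, 1, 0 and 0 were higher against 5.67% and 0, 0, 0, 0 and 1 lower against 3.52%. Between the strains, 0, 2, 1, 1 and 1 were higher with CRL1505 against 9.01% and 0, 0, 1, 1 and 0 lower against 7.46%. Of 7 further sterol and isoprenoid enzymes on the arrays none changed 2-fold. Their median log2 ratio was -0.09 with CRL1505, -0.18 with CRL1506 and 0.06 between the strains, so unlike the set they lay near 0 with CRL1505. *Msmo1*, which acts beside *Nsdhl*, had 15409 units with LPS, 10747 with CRL1505 + LPS and 14072.5 with CRL1506 + LPS, -0.52 and -0.13. In the same order of strains *Lbr* stood at -0.68 and -0.51, *Dhdds* at -0.09 and -0.24, and *Ggps1* at 0.74 and 0.32. Of 9 genes of SREBP processing and sterol-regulated degradation, the median log2 ratio was 0.33 with CRL1505 and -0.13 with CRL1506, and *Paqr3*, a Golgi protein that binds SCAP, had 73.0, 258 and 41.3 units and rose 3.53-fold with CRL1505. Between the strains *Paqr3* was 6.24-fold and *Rnf139*, an endoplasmic reticulum ubiquitin ligase, 2.06-fold higher with CRL1505. The *Paqr3* signal of 41.3 units with CRL1506 + LPS was near the lowest that passed background on that array, 30.5 units. Among 21 other fatty acid genes the medians were 0.02 and -0.01, with *Scd4*, another stearoyl-CoA desaturase, at 1.59 with CRL1505 where *Scd2* stood at -1.73. *Oxsm*, of mitochondrial fatty acid synthesis, was at 1.30 with CRL1505 and 1.21 with CRL1506, and *Scd3* was 2.34-fold lower with CRL1505 than with CRL1506. The desaturase genes thus went different ways on these arrays, and since *Scd1* to *Scd4* are close paralogs, their probes may share signal.

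Of 5 glycerolipid genes, *Dgat2*, which makes triacylglycerol, rose 3.23-fold with CRL1505, at 1294, 4185 and 1746 units in the order above. *Lpin1*, the phosphatidate phosphatase, was at least 5.47-fold lower with CRL1505, where its signal of 20.5 units was not well above background, against 202 with LPS and 119 with CRL1506 + LPS. Of 14 genes of sterol storage, transport and oxysterols, *Ch25h*, which makes 25-hydroxycholesterol, had 284, 62.3 and 107 units and fell by 2.19 on the log2 scale with CRL1505, and stood at -1.41, likewise over 2-fold lower, with CRL1506. *Stard5*, a sterol carrier, stood at 1.20 with CRL1505 and 0.69 with CRL1506, and *Mylip*, a ubiquitin ligase for lipoprotein receptors, was 2.07-fold higher with CRL1505 than with CRL1506. The other genes of these lists stayed under 2-fold or were not well above background.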

How the data were processed

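RNA of 3 samples, 1 a group, was hybridised to 1-colour Agilent mouse arrays (62976 spots, 59305 gene spots, 56605 gene probes). The deposited scanner files hold intensity values, the processed signal that the authors obtained with Feature Extraction 12.0.3.1 per the file headers, with background subtracted. The deposited table holds log2 values that the authors made from the same arrays, with equal medians of 6.77, and its exact normalization is not given in the sources used here. It was used as an alternative only. Probe positions are mm9.

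From the intensities, log2 was taken and each array's 75th percentile over gene spots was subtracted. Outlier spots (467, 241 and 274 on the LPS, CRL1505 + LPS and CRL1506 + LPS arrays) were left out, repeated spots averaged, and a gene was read from its brightest probe. A probe not well above background on 1 array gave a bound, on both no ratio. Ratios of at least 2-fold were called. The methods' t-test and limma fit could not be run with 1 array a group, and the number of arrays limits the precision. Each member was named by rule, and genes outside the set were named from fixed lists where at least 2-fold changed or bright. Members, lists and steps were chosen with earlier results of these data known. Alternatives covered the scaling, the background (limma 3.58.1, R 4.3.3), the probe choice, the filters and the fold. Removing the GC trend of the probes, over 12 bins, and setting the members beside bright genes were chosen after seeing the data. The probe and ratio steps were run on simulated arrays, made from the LPS array with spot noise and known changes. These arrays did not differ in brightness and were not scaled, so they do not test the scaling. Other work used Python 3.11.15, pandas 2.3.3, NumPy 2.4.6 and SciPy 1.17.1.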

Additional observations from a re-analysis of the deposited data

Results flagged for a closer look

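*Insig1*, the sterol sensor that holds SREBP back, lay on opposite sides of LPS for the 2 strains, at a log2 ratio of -0.78 with CRL1505 and 0.37 with CRL1506, on 1 probe and 1 array a group. Each strain kept its side of 0 in the 13 other ways of processing. The difference between the strains was not tested, since there is 1 array a group.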

How the results depend on the processing

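The median of the sterol and fatty acid genes minus that of all genes, and the other counts and medians not named here, moved, for medians, by less than the spread between probes and, for counts, by at most 1.5 times in each alternative run (153 values, against 15 given here), the count lower with CRL1505 over LPS going from 6 to 4 with a shift by the median. With a threshold of 1.5-fold, 17, 2 and 12 genes were lower with CRL1505 over LPS, with CRL1506 over LPS and with CRL1505 over CRL1506, and with 4-fold 0 were lower in the first and 1 in the last. With a shift by the median, the median ratio was -0.33 with CRL1505 over LPS and 0.13 between the strains, and 1 gene was lower with CRL1506 over LPS and 1 between the strains. With spike-in scaling, 18 genes were lower with CRL1505 over LPS (median -1.13) and 10 between the strains (median -0.77). The count higher with CRL1506 over LPS was 0 with probes averaged within a gene and with a filter that asks for signal on each array, since *Elovl6* then has no ratio. Of single genes, 23 of 30 stayed below 0 with CRL1505 over LPS, 24 of 31 kept their sign with CRL1506 and 14 of 31 between the strains. For the other changes the cause was not tested. No paired analysis was possible because each group has 1 array, and for the same reason no replicate was left out. *Scd1*, *Elovl6* on 2 arrays and the dim second probes are limited by signal over background.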
